A study of Mus musculus with 6 samples.

Results

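The 10 genes described here are known from Pi16-positive adventitial fibroblasts and were read in sorted mouse kidney stroma: Pi16, Clec3b, Itgbl1, Smoc1, Dpt, Dpp4, Cd55, Sema3c, Ackr3 and Anxa3. They were picked by symbol as 10 of the 31815 gene rows, because high and low libraries of this group had been seen to cross the sorts, so their levels are given as a description. Where calls over all genes are counted for them, nothing is read from the count. All 10 were among the 15462 genes that passed the filter on low counts. The groups were 3 libraries of tdT+GFP+ cells and 3 libraries of tdT-GFP+ cells, 1 of each from kidneys 1, 2 and 3 as the labels number them. All came from male Axin2CreERT2/+:R26RtdT/+:Acta2-GFP mice aged 9 to 12 weeks, which carried the same alleles in both sorts. Both kidneys had undergone ischemia-reperfusion injury, tamoxifen was given on days 2 and 4, and cells of the cortex and outer medulla were sorted on day 6. GFP is driven by Acta2, the smooth muscle actin gene of myofibroblasts and mural cells. The tdT label is switched on by Cre under Axin2, a feedback target of Wnt signalling, and records Axin2 activity around the tamoxifen doses, not at the sort.

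Adventitial fibroblasts form the outer sheath of arteries and veins, where they build loose collagen and elastic matrix and hold immune cells and nerves in place. Fibroblasts with Pi16 and Dpp4 are known from several mouse organs as a population with progenitor features, set apart from the fibroblasts between the parenchymal units. In the kidney this sheath lies around the larger vessels.

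Promoter sequence was matched in RefSeq (GRCm38.p6) for 7 of the 10 genes, and 3 are shown: Pi16 and Itgbl1, which varied together across libraries, and Dpt, which did not vary with them. Each is the 250 bases before the RefSeq start, 5′ to 3′ on the gene's strand, at chr17:29318632-29318881 (+) for Pi16, chr14:123659890-123660139 (+) for Itgbl1 and chr1:164796413-164796662 (+) for Dpt. In all 3 the RefSeq start lies inside the gene as GENCODE annotates it. The capitals mark a TCF/LEF word in Pi16 and a GC box in Itgbl1.
Pi16: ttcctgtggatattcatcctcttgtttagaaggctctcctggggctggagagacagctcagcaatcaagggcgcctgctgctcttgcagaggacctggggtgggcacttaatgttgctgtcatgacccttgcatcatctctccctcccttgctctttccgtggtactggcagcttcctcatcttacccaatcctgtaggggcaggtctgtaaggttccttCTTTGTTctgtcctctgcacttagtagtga
Itgbl1: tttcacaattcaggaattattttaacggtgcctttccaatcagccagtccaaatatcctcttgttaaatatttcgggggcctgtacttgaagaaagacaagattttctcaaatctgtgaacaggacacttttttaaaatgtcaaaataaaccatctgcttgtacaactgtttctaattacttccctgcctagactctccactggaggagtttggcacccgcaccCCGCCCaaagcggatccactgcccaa
Dpt: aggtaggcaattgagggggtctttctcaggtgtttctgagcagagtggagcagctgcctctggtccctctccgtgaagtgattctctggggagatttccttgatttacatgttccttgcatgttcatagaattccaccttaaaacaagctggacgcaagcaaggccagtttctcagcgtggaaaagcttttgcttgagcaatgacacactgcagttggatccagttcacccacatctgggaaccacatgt
The TCF/LEF words searched, on both strands, were CTTTGAA or CTTTGAT, as well as CTTTGTA or CTTTGTT. They occurred in 1 of the 7 member promoters (Pi16, from base -30) and in 14.8% of all 32851 promoters of this length. GGGCGG, searched on both strands, was found in 4 of the 7 (Ackr3, Cd55, Itgbl1 and Sema3c), against 32.7% of all. TATAAA, searched on the gene's strand, was found in Ackr3 and Dpp4, against 7.59% of all. These matches describe letters in the window and not binding.

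Library totals ran from 26919514 to 33029933 estimated counts in tdT+GFP+ cells and from 25697348 to 31337198 in tdT-GFP+ cells. A count of 3 corresponded to between 0.0915 and 0.114 CPM (the count scaled to a common library total), below the lowest value of every member. Levels are CPM on TMM-scaled totals, TMM being a scaling that balances library composition. In these sorted bulk samples, fewer cells of a type and less RNA per cell cannot be told apart.

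The genes Pi16, Clec3b, Itgbl1 and Smoc1 were high in the same 3 libraries, tdT+GFP+ cells of kidney 2 and tdT-GFP+ cells of kidneys 1 and 3. They were low in the other 3, so the sorts overlapped for each. Pi16, a peptidase inhibitor-like protein of the CAP family (ENSMUSG00000024011.17, chr17:29317680-29330593, + strand, GRCm38), was at 4.45, 58.7 and 3.42 CPM in the tdT+GFP+ sort of kidneys 1, 2 and 3, against 42.2, 5.27 and 69.8 CPM in the tdT-GFP+ sort of the same kidneys. The lowest of its high libraries stood 8.0-fold above the highest of its low libraries. Its means were 22.2 ± 31.6 CPM in the tdT+GFP+ sort and 39.1 ± 32.4 CPM in the tdT-GFP+ sort (SD, n = 3 each). Between sorts its log2 fold change was -0.81 (SE 1.27), smaller than its own error.

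Clec3b encodes tetranectin, a secreted lectin-like protein that binds plasminogen (ENSMUSG00000025784.5, chr9:123150946-123157432, +). Its levels were 0.915, 13.5 and 0.723 CPM in the tdT+GFP+ sort of kidneys 1, 2 and 3, against 9.64, 0.448 and 12.5 CPM in the tdT-GFP+ sort. The gap between its high and low libraries was 10.5-fold, the widest of the 10 genes, and the log2 fold change between sorts was -0.58 (SE 1.36). Itgbl1, a secreted protein with repeats like those of integrin beta chains (ENSMUSG00000032925.16, chr14:123659971-123975618, +), spanned the widest range. It stood at 1.01, 12.3 and 0.152 CPM in the tdT+GFP+ sort, against 7.77, 0.710 and 10.8 CPM in the tdT-GFP+ sort, or 80.7-fold between its highest and lowest library. Its lowest value rests on 4 counts. Smoc1 encodes a matricellular protein that binds calcium and modulates BMP signalling (ENSMUSG00000021136.13, chr12:81026808-81186414, +). It was at 2.32, 15.3 and 0.761 CPM in the tdT+GFP+ sort and 10.96, 1.23 and 11.8 CPM in the tdT-GFP+ sort, with a gap of 4.73-fold. The log2 fold changes between sorts were -0.52 (SE 1.40) for Itgbl1 and -0.38 (SE 1.15) for Smoc1, each within its error.

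**Figure D1:**
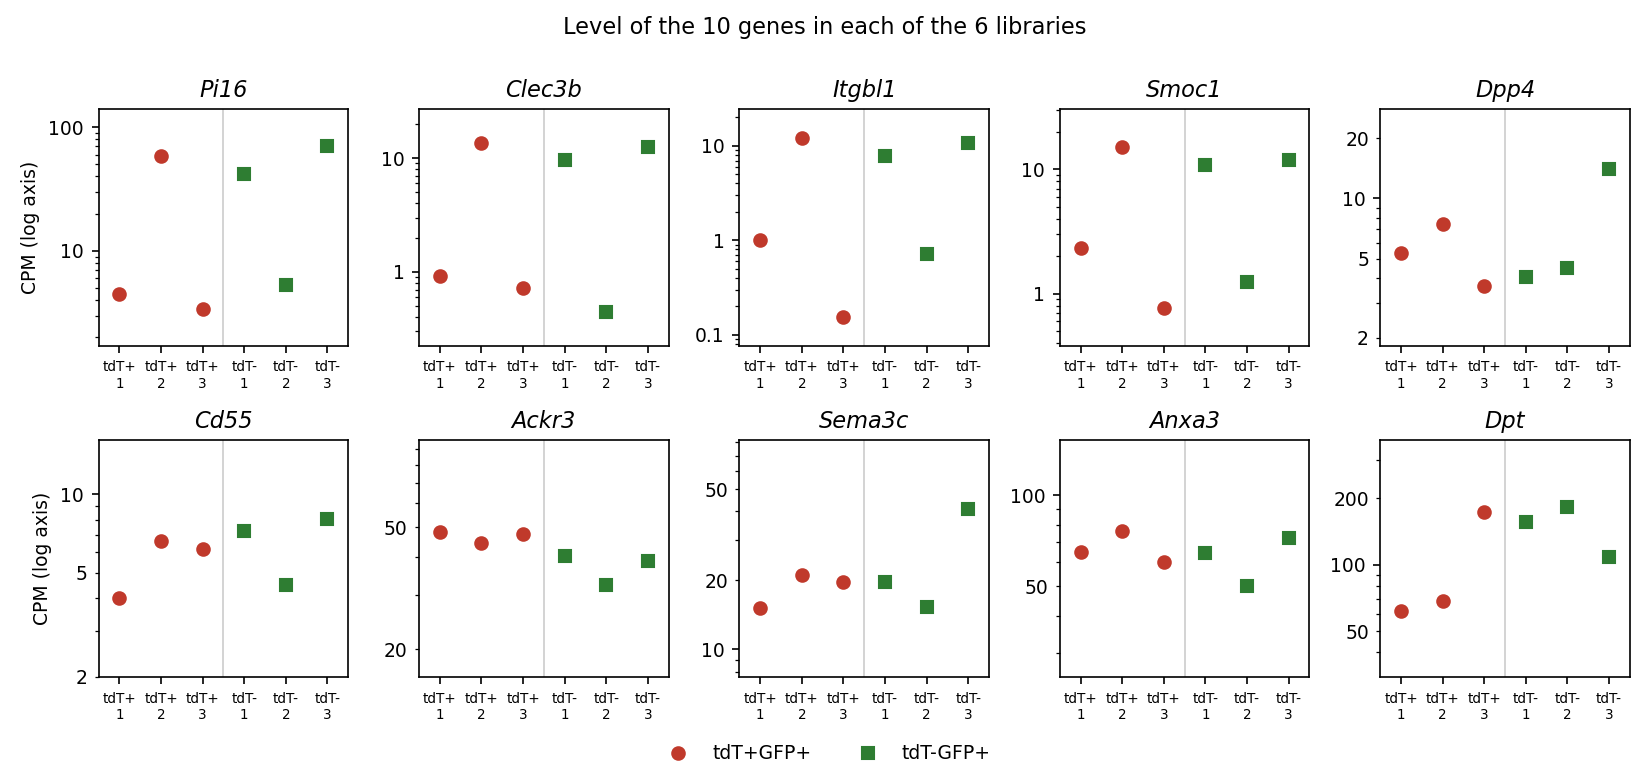
Level of each of the 10 genes in each of the 6 libraries, in CPM on a log axis, with tdT+GFP+ cells left of tdT-GFP+ cells and kidneys marked. Pi16, Clec3b, Itgbl1 and Smoc1 are high in tdT+GFP+ cells of kidney 2 and in tdT-GFP+ cells of kidneys 1 and 3, while Ackr3 and Anxa3 stay within 1.52-fold over all libraries.

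Dpt encodes dermatopontin, a matrix protein that helps organise collagen fibrils and is made by fibroblasts of many organs (ENSMUSG00000026574.5, chr1:164796644-164824266, +). It did not follow Pi16: its levels were 61.8, 68.5 and 173.6 CPM in the tdT+GFP+ sort of kidneys 1, 2 and 3, against 155.7, 183.4 and 108.1 CPM in the tdT-GFP+ sort. The highest library, tdT-GFP+ cells of kidney 2, was among the 3 lowest for Pi16. Its log2 fold change between sorts was -0.56 (SE 0.43).

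Among surface proteins, Dpp4 is a membrane serine peptidase that trims chemokines and incretins (ENSMUSG00000035000.8, chr2:62330073-62412231, − strand). Its levels were 5.34, 7.47 and 3.65 CPM in the tdT+GFP+ sort, against 4.05, 4.48 and 14.0 CPM in the tdT-GFP+ sort of kidneys 1, 2 and 3. Only tdT-GFP+ cells of kidney 3 stood clearly above the other libraries, and the log2 fold change was -0.45 (SE 0.54). Proximal tubule cells also use Dpp4, and the summed level of 9 proximal tubule markers was 331, 590 and 172 CPM in the tdT+GFP+ sort and 269, 218 and 652 CPM in the tdT-GFP+ sort. The 3 libraries highest for Dpp4 were also the 3 highest for that sum, and its part in the result was not tested. Cd55, or decay-accelerating factor, restrains complement on the cell surface (ENSMUSG00000026399.12, chr1:130439027-130462744, −). It was at 3.99, 6.60 and 6.16 CPM in the tdT+GFP+ sort and 7.21, 4.48 and 8.04 CPM in the tdT-GFP+ sort. Its 3 highest libraries were those of Pi16, by only 1.07-fold, and its log2 fold change was -0.24 (SE 0.29). Cd55b, a close copy next to which reads could be divided, had 0 counts in all 6 libraries.

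Sema3c and Ackr3 act in guidance and chemokine signalling. Sema3c is a secreted semaphorin that signals through neuropilins and plexins (ENSMUSG00000028780.13, chr5:17574281-17730268, +). Levels of 15.2, 21.1 and 19.6 CPM were found in tdT+GFP+ cells, against 19.6, 15.3 and 40.8 CPM in the tdT-GFP+ sort, with tdT-GFP+ cells of kidney 3 above all others and a log2 fold change of -0.44 (SE 0.37). Ackr3, an atypical receptor that takes up Cxcl12 (ENSMUSG00000044337.5, chr1:90203980-90216751, +), was at 48.2, 44.4 and 47.6 CPM in the tdT+GFP+ sort and 40.2, 32.4 and 38.7 CPM in the tdT-GFP+ sort. It was the only member whose sorts did not overlap, and it was higher in tdT+GFP+ cells in all 3 kidneys, by 0.26, 0.46 and 0.30 on the log2 scale. The fitted log2 fold change was 0.33 (SE 0.098). A description of the group as crossing the sorts thus does not hold for Ackr3. Its adjusted p was 0.41 in edgeR and 0.17 in DESeq2. Groups did not overlap for 15.8% of the 15462 genes tested. Anxa3, a calcium-dependent phospholipid-binding protein (ENSMUSG00000029484.12, chr5:96793339-96845966, +), was at 64.7, 76.1 and 60.4 CPM in the tdT+GFP+ sort and 64.6, 50.1 and 72.2 CPM in the tdT-GFP+ sort, with no library standing apart and a log2 fold change of 0.11 (SE 0.15).

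Per kilobase of exon, the mean level over the 6 libraries was highest for Dpt at 72.6 CPM per kb. Anxa3 followed at 17.8 and Ackr3 at 12.5 CPM per kb, and their ranges over libraries overlapped: 13.7 to 20.9 for Anxa3 and 9.67 to 14.4 for Ackr3. The lowest Dpt library, at 35.9 CPM per kb, was above every Anxa3 library. Clec3b at 6.33, Pi16 at 4.81, Sema3c at 3.07 and Smoc1 at 2.02 CPM per kb overlapped one another across libraries, as did Itgbl1 at 1.29, Cd55 at 1.25 and Dpp4 at 1.03.

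Taken by the labelled kidney numbers, the direction between sorts turned for the Pi16 pattern. Libraries of the same number did not deviate together from their sort means: across the 15462 genes the correlation was 0.04, -0.58 and -0.30 in kidneys 1, 2 and 3. It was 0.45 between tdT+GFP+ cells of kidney 2 and tdT-GFP+ cells of kidney 3, and 0.44 between tdT+GFP+ cells of kidney 3 and tdT-GFP+ cells of kidney 2. For each gene the deviations of a sort sum to 0 over its 3 libraries, so these correlations are tied to one another. The differences within kidneys rest on the labelled numbers. Pi16 differed by -3.22, 3.46 and -4.32 on the log2 scale (tdT+GFP+ minus tdT-GFP+) in kidneys 1, 2 and 3, and Clec3b by -3.30, 4.71 and -3.99. Itgbl1 and Smoc1 were also below 0 in kidneys 1 and 3 and above 0 in kidney 2, as did Cd55 and Sema3c with smaller values. Dpt was instead below 0 in kidneys 1 and 2 and at 0.68 in kidney 3. Dpp4 was above 0 in kidneys 1 and 2 and at -1.92 in kidney 3. Leaving out both libraries numbered 2 gave a log2 fold change of -3.83 for Pi16, and leaving out both libraries numbered 3 gave 0.41.

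**Figure D2:**
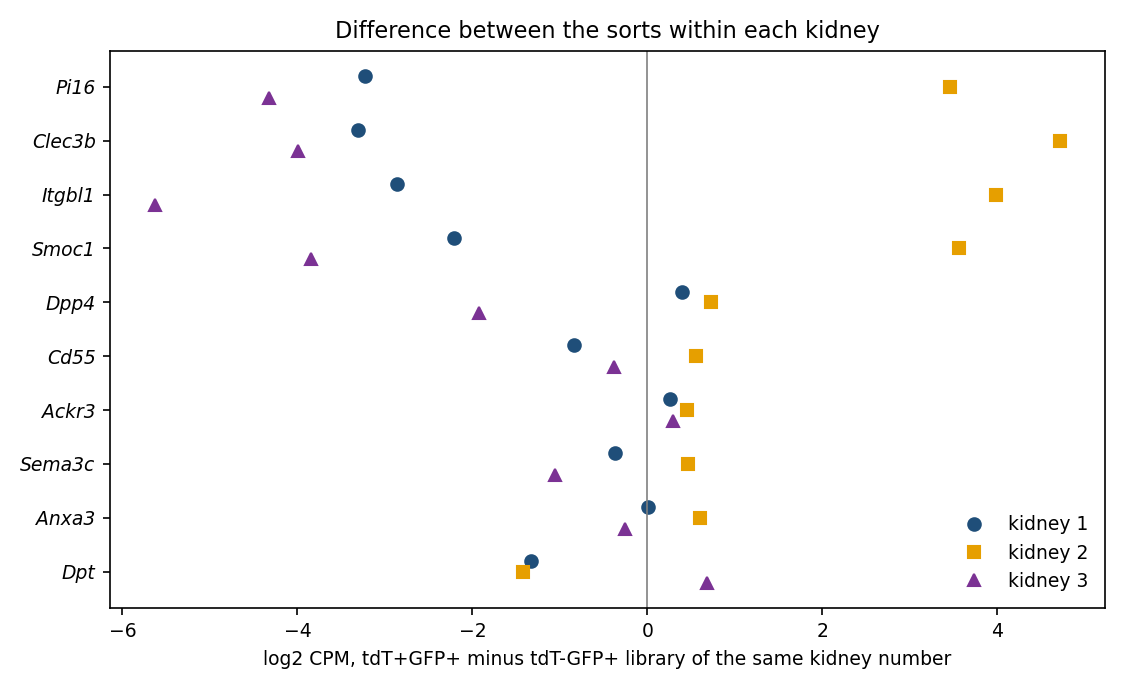
Difference between tdT+GFP+ and tdT-GFP+ cells of the same kidney on the log2 scale for each of the 10 genes, 1 point per kidney. Pi16, Clec3b, Itgbl1 and Smoc1 lie below 0 in kidneys 1 and 3 and above 0 in kidney 2, and Ackr3 lies above 0 in all 3.

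The edgeR quasi-likelihood test with Benjamini-Hochberg adjustment called 0 members, against 0.0% of the 15462 genes, and at an unadjusted p under 0.05 it held 1 member (Ackr3), against 10.7% of genes. DESeq2 called 0 members, against 1.93% of 14559 genes, and 0 with kidney as a block, against 1.95% of 14262. Of the members, 8 had a negative and 2 (Ackr3 and Anxa3) a positive log2 fold change, with a median of -0.44, against 50.1% negative over all genes tested. Variation between libraries of a sort set the members apart from each other: Itgbl1 had an edgeR dispersion of 1.29 (rank 19 of 15462), Clec3b 1.17, Pi16 0.977 and Smoc1 0.865, against a median of 0.024 over all genes. Ackr3 was at 0.0130 and Anxa3 at 0.0218, below that median.

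**Figure D3:**
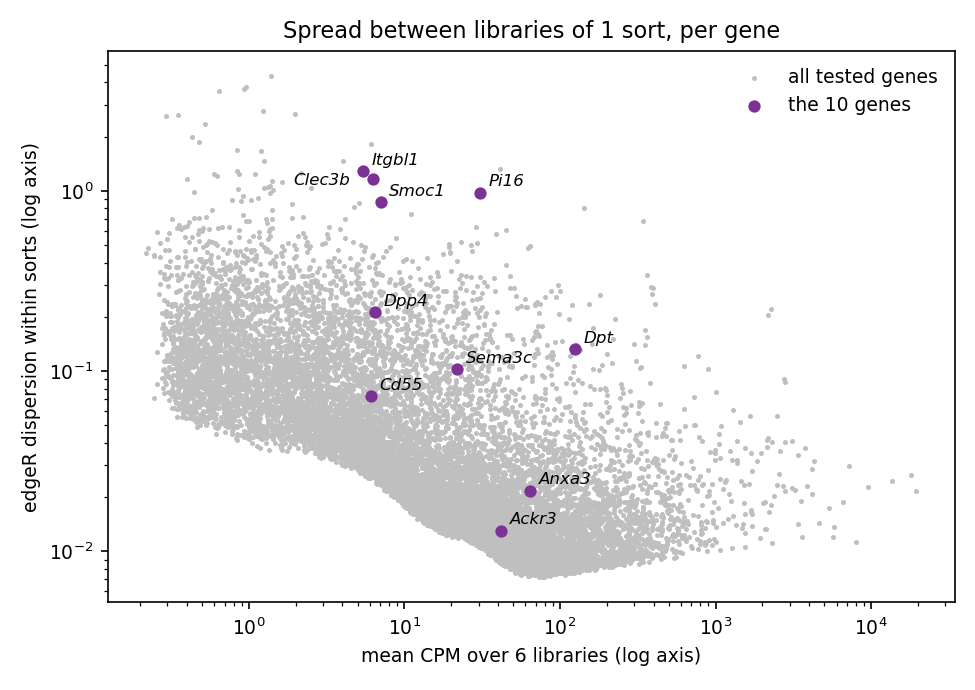
Dispersion of all tested genes against mean level, both on log axes, with the 10 genes marked. Itgbl1, Clec3b, Pi16 and Smoc1 lie far above the median of 0.024, and Ackr3 and Anxa3 lie below it.

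The library order of Pi16 was then counted over all genes, a count chosen after its values were seen. With a gap of at least 2-fold between the 3 high and 3 low libraries, it was found for 59 genes, or 0.382% of those tested, among them Pi16, Clec3b, Itgbl1 and Smoc1. With any gap it was found for 7.45% of genes and for 6 of the 10 members, Sema3c by only 1.00-fold. Of 29 other adventitial genes tested, 2 held the 2-fold gap: Scara5, a ferritin scavenger receptor, and Pcolce2, an enhancer of procollagen processing. With any gap, 10 of the 29 held the order of Pi16 and 2 the opposite order, against 7.45% and 9.36% of genes tested. Scara5 was at 1.46, 11.4 and 0.837 CPM in the tdT+GFP+ sort, against 6.52, 0.747 and 9.93 CPM in the tdT-GFP+ sort. Pcolce2 was at 4.18, 12.3 and 1.90 CPM in the tdT+GFP+ sort and 8.39, 1.83 and 8.86 CPM in the tdT-GFP+ sort. Lum, Gdf10 and Sfrp4, all made by matrix fibroblasts and named after their values were seen, held the same order. Also among the 59 were Plvap, Selp and Aplnr, genes of venous and capillary endothelium looked up after values were seen. Nr2f2, Vwf and Ackr1, looked up with them, were not among the 59. Lum, a collagen-binding proteoglycan, was at 21.4, 129.9 and 25.9 CPM in the tdT+GFP+ sort and 95.5, 18.2 and 93.9 CPM in the tdT-GFP+ sort.

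Correlation over the 6 libraries, a description in which high and low libraries form separate clusters, placed Clec3b (r = 0.98), Itgbl1 (0.97) and Smoc1 (0.97) next to Pi16 on log2 CPM. Cd55 (0.79), Anxa3 (0.73), Sema3c (0.70) and Dpp4 (0.67) were less alike, and Ackr3 (-0.16) and Dpt (-0.25) were not. Against the mean profile of the 10 members, the most alike of 2600 genes ranked were Hunk (r = 0.994), a kinase, Slco2a1 (0.982), a prostaglandin transporter, Il2rg, Fam129a, Abtb2, Rps6kl1, Nrk, Cyp4a14, Eda2r and Ccn3. Slco2a1 was at 128, 182 and 118 CPM in the tdT+GFP+ sort and 181, 96.5 and 234 CPM in the tdT-GFP+ sort. The most opposite were Adh6b (-0.994), Prtn3, Nkd1 (-0.977), Gpr165 and Efemp1. Nkd1, a feedback antagonist of Wnt signalling, was at 227, 162 and 245 CPM in the tdT+GFP+ sort and 183, 263 and 130 CPM in the tdT-GFP+ sort. The mean profile includes Ackr3 and Dpt, which did not follow Pi16. With Pi16 alone as the profile, a choice made after seeing the data, the most alike genes outside the members differed. They began with Epha3 (r = 0.995), Col14a1 (0.992), Ccdc3, Gdf10 and Sfrp4.

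Axin2 itself stood in the library order opposite to Pi16, at 52.7, 29.7 and 64.2 CPM in the tdT+GFP+ sort and 43.0, 64.2 and 27.3 CPM in the tdT-GFP+ sort. That order, with any gap, was found for 9.36% of the genes tested. Of other Wnt feedback genes, looked up after values were seen, Nkd1 also held it, while Lgr5, Notum, Sp5 and Znrf3 did not. The Axin2 log2 fold change between sorts was 0.12 (SE 0.38), within its error. Acta2 was at 1576, 1415 and 1746 CPM in the tdT+GFP+ sort and 1588, 943 and 943 CPM in the tdT-GFP+ sort, with a log2 fold change of 0.45 (SE 0.23).

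**Figure D4:**
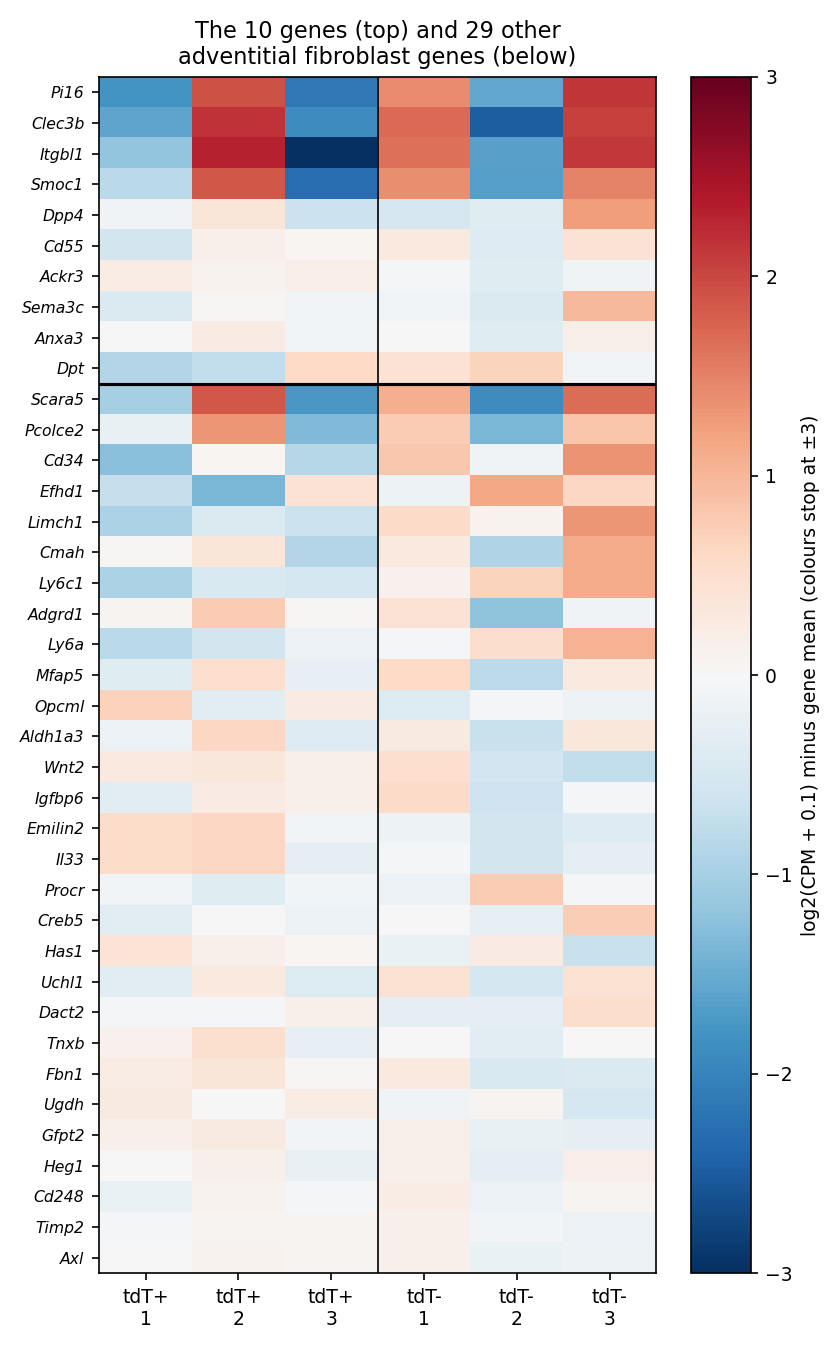
Level of the 10 genes and of the other adventitial genes in each library, as log2 CPM (after adding a small constant) relative to each gene's mean, with tdT+GFP+ columns left of tdT-GFP+ columns. Scara5 and Pcolce2 share the Pi16 pattern, and Cd34, Ly6a, Ly6c1 and Limch1 are lower in most tdT+GFP+ libraries.

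The rest of the adventitial list, 30 genes with 29 tested, was not uniform. Of these, 13 had a positive and 16 a negative log2 fold change, with a median of -0.019, against -0.00039 over all genes, and edgeR called 0 of 29. DESeq2 called 4 of 28 lower in tdT+GFP+ cells, against 1.81% of genes: Cd34, Ly6a, Ly6c1 and Limch1. Their log2 fold changes in the edgeR fit, which did not call them, were -1.39 (SE 0.46), -1.06 (SE 0.29), -1.33 (SE 0.26) and -1.42 (SE 0.32) in that order. With kidney as a block DESeq2 no longer called Cd34 (adjusted p = 0.606, against 0.0489 without the block), and it called the other 3. Endothelium also expresses Cd34, Ly6a and Ly6c1, and the summed level of 11 endothelial markers was 603, 984 and 775 CPM in the tdT+GFP+ sort and 1720, 1326 and 2311 CPM in the tdT-GFP+ sort. None of the 11 was at 0, all 11 were negative, and their part in these differences was not tested. The largest positive log2 fold changes were those of Emilin2 (0.75, SE 0.21), Il33 (0.62, SE 0.26) and Opcml (0.57, SE 0.42). The most abundant were Fbn1, the fibrillin of microfibrils, at 2606, 2853 and 2285 CPM in the tdT+GFP+ sort and 2720, 1623 and 1650 CPM in the tdT-GFP+ sort, and Timp2, Axl, Heg1, Il33 and Cd248, none in the 2-fold order of Pi16.

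Ligands, receptors and relatives of the members, 17 genes with 16 tested, gave 6 positive and 10 negative log2 fold changes, with a median of -0.10. Both edgeR and DESeq2 called 0 of 16. In edgeR 2 of 16 were below an unadjusted p of 0.05, against 10.7% of all genes tested, and nothing is read from this count. They were Plxnd1 (-0.58, SE 0.20) and Plxna2 (-0.71, SE 0.25), plexins that bind semaphorins. Cxcl12, the ligand of Ackr3, was at 582, 541 and 534 CPM in the tdT+GFP+ sort and 411, 704 and 400 CPM in the tdT-GFP+ sort. Smoc2, the paralog of Smoc1, was at 574, 645 and 599 CPM in the tdT+GFP+ sort and 660, 759 and 621 CPM in the tdT-GFP+ sort, within 1.5-fold and without the Smoc1 pattern.

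Other cell types were read from marker lists. Mesothelial markers summed to 66.9, 49.9 and 76.8 CPM in the tdT+GFP+ sort and 54.7, 67.0 and 50.2 CPM in the tdT-GFP+ sort, lower in the 3 libraries high for Pi16, with 5 of the 10 genes under 1 CPM throughout and Muc16 and Calb2 at 0 in all. Injured tubule markers (5 genes, none at 0) summed to 2102, 3291 and 2498 CPM in the tdT+GFP+ sort and 2767, 2215 and 5184 CPM in the tdT-GFP+ sort, higher in the 3 libraries high for Pi16. Macrophage markers (8 genes, none at 0) summed to 1026, 1517 and 420 CPM in the tdT+GFP+ sort and 542, 303 and 923 CPM in the tdT-GFP+ sort. Dissociation stress genes summed to 15492, 12306 and 21013 CPM in the tdT+GFP+ sort and 17715, 24445 and 16573 CPM in the tdT-GFP+ sort. Sums for fibroblasts between the tubules were 9940, 10573 and 10861 CPM in the tdT+GFP+ sort and 11268, 10122 and 9199 CPM in the tdT-GFP+ sort. Distal nephron markers ranged from 122 to 558 CPM in the tdT+GFP+ sort and from 451 to 971 CPM in the tdT-GFP+ sort. Schwann cell markers stayed between 0.609 and 1.76 CPM over all 6 libraries. The part of these lists in the Pi16 pattern was not tested.

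**Figure D5:**
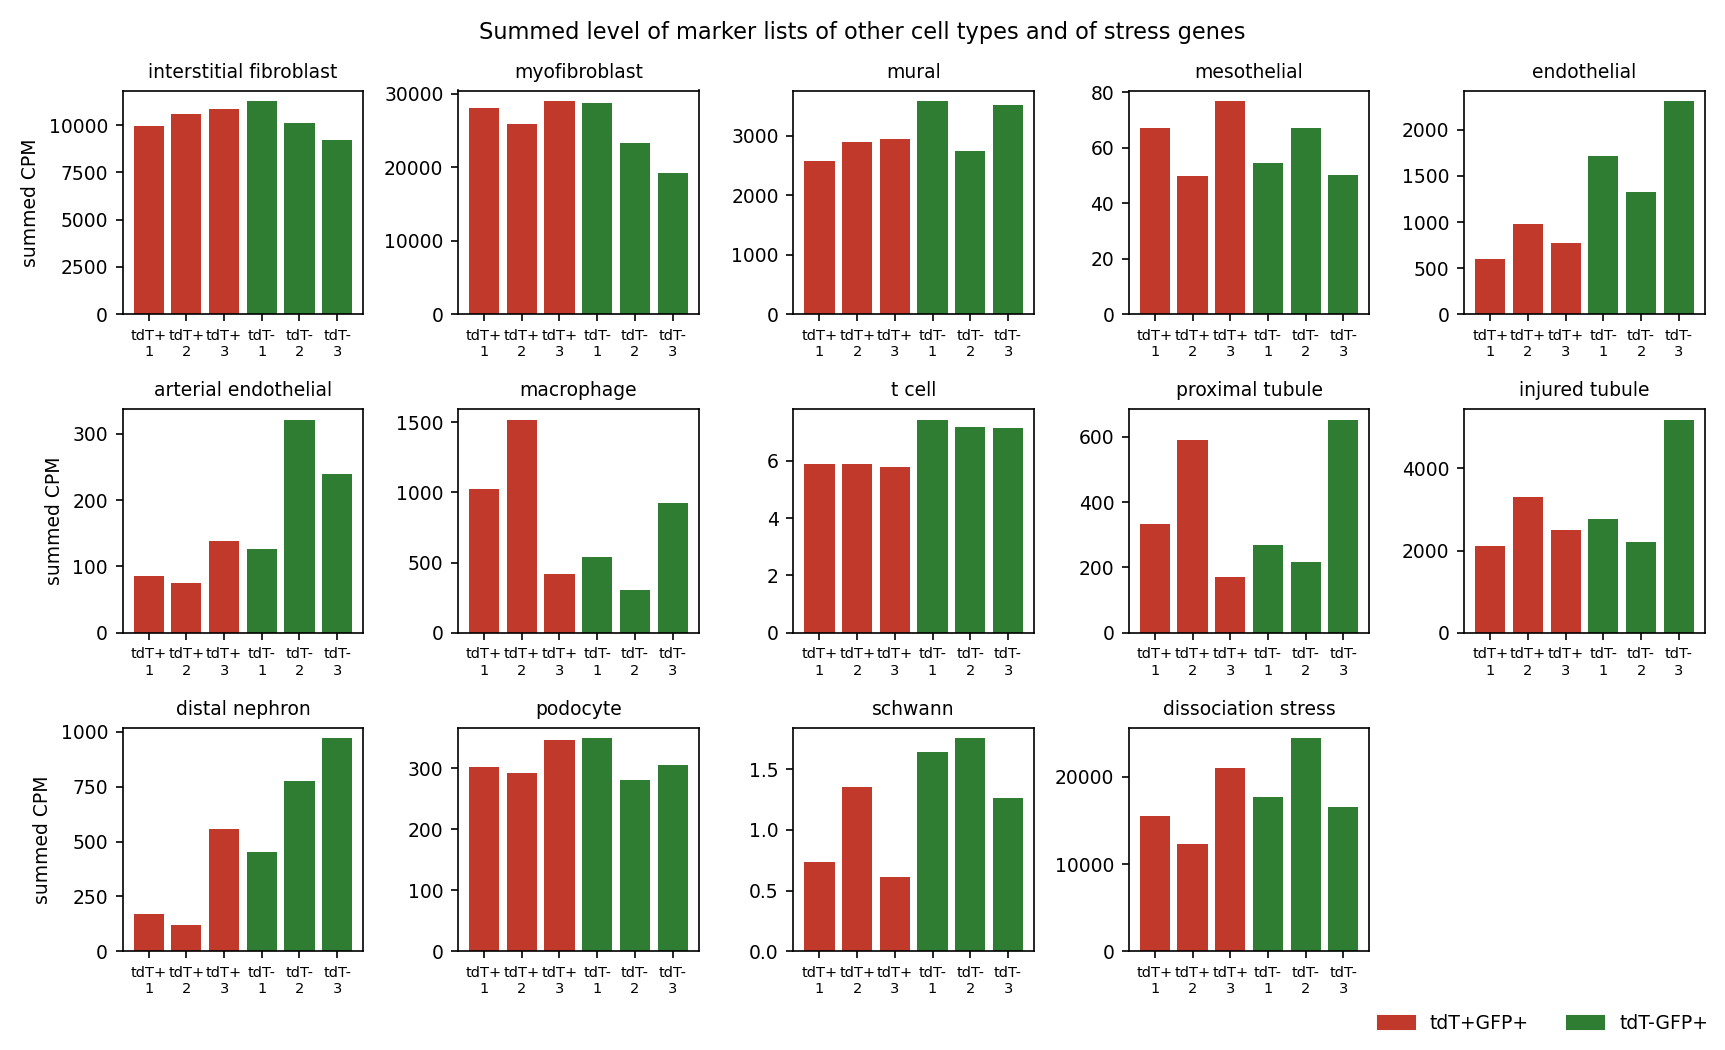
Summed CPM of each marker list in each library, with tdT+GFP+ cells left of tdT-GFP+ cells. Endothelial sums are lower in every tdT+GFP+ library (603 to 984 CPM) than in any tdT-GFP+ library (1326 to 2311 CPM).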

How the data were processed

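The 6 libraries were prepared from kidney cells that, per the labels' protocols, were released at low temperature by a protease active in the cold plus Liberase and sorted without debris or doublets. Poly(A) selection preceded a strand-specific library kit. Use of strand in counting is not stated, and antisense genes may share reads. The deposited table holds RSEM estimated counts per gene, per the file headers, already as whole numbers. The submitters' processing notes list STAR 2.6.1, RSEM 1.2.28 and DESeq2 1.26.0 and name mm10 and GRCh38 with no role. The 92 ERCC rows, all at 0, were left out. Antisense genes overlapping Pi16, Dpp4, Cd55 and Dpt had 18, 1, 0 and 3 counts in all. Coordinates and exon lengths are from GENCODE M21 (GRCm38), where 31748 of 31815 identifiers matched.

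Genes were filtered by filterByExpr, scaled by TMM and then fitted in edgeR 4.0.16 (quasi-likelihood, robust, group alone, Benjamini-Hochberg, threshold 0.05) in R 4.3.3. The procedure was tested on counts simulated with the dispersion trend over all genes. That setting does not cover genes as variable as Pi16, Clec3b, Itgbl1 and Smoc1. Alternatives were DESeq2 1.42.0, limma-voom 3.58.1, a kidney block, other scalings and filters, and leaving out libraries or kidneys. Log2 fold changes are unshrunken, and correlations use log2 CPM (prior count 2). The labels tie same-numbered libraries to 1 kidney; deviations from the sort means correlated at 0.04, -0.58 and -0.30 across genes in kidneys 1, 2 and 3. The labels name biological replicates. The edgeR p-values set the difference between sorts against the spread of replicates within a sort, and the main fit does not use the kidney pairing.

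Members and lists were chosen with earlier results of these data known. The text names the members, Axin2, Acta2, the most abundant and most changed other adventitial genes, and some ligands, receptors and relatives of the members. It also names the 10 most alike and 5 most opposite genes among those averaging 1 CPM or more with a 2-fold range. Lists of other cell types are given as sums, in the text or the figure. Their genes that DESeq2 called are not named. Others are said to be chosen after their values were seen.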

Additional observations from a re-analysis of the deposited data

How the results depend on the processing

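Calls between sorts depended on the tool. The edgeR test called 0 genes higher and 0 lower, also with the replicate block of kidneys. DESeq2 called 17 higher and 264 lower, and with the replicate block 41 and 237; of the other adventitial genes it called 4 lower, and 3 with the replicate block (without Cd34). No alternative called a member. Over 18 alternatives, the log2 fold change of Pi16 ran from -3.83 (without kidney 2) to 0.41 (without kidney 3), that of Smoc1 from -2.87 to 0.52 and that of Ackr3 from 0.24 to 0.41. The partner median of -0.10 ran, with single libraries left out, from -0.18 (without tdT+GFP+ replicate 2) to -0.033 (without tdT+GFP+ replicate 3), with -0.043 without tdT-GFP+ replicate 3. It was -0.029 without kidney 1 and -0.033 without kidney 3. The adventitial median of -0.019 ran from -0.27 (without kidney 2) to 0.23 (without kidney 1). The 59 genes in the order of Pi16 became 39 with a filter of 1 CPM in 3 libraries, which tests fewer genes, and 57 to 60 under other scalings; these alternatives were added after seeing the data. With Pi16 alone as the profile, also added, 0 of the 10 most alike genes were shared. Where not stated, the cause was not tested. The spread between libraries of a sort was far above the median over all genes for Pi16, Clec3b, Itgbl1 and Smoc1. For Ackr3 and Anxa3 it was below that median. Counting error adds to the spread for Itgbl1 and Clec3b in their low libraries, at 4 to 33 counts, and for Smoc1, at 20 to 76.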

Other observations

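Further genes were named after their values were seen and carry no test. Slc14a1, a urea transporter of the medullary vasa recta, stood opposite to Pi16, at 20.9, 1.51 and 68.3 CPM in the tdT+GFP+ sort of kidneys 1, 2 and 3 and 5.82, 140.9 and 8.45 CPM in the tdT-GFP+ sort. Aqp1, a water channel of tubule and vasa recta, was at 215.6, 56.6 and 442.3 CPM in the tdT+GFP+ sort and 92.7, 1069 and 174.0 CPM in the tdT-GFP+ sort, also opposite. Plvap, a diaphragm protein of fenestrated capillaries and veins, followed Pi16 at 142.4, 360.5 and 118.8 CPM in the tdT+GFP+ sort and 635.0, 171.9 and 885.0 CPM in the tdT-GFP+ sort. Selp and Aplnr, looked up with it as genes of venous and capillary endothelium, were high in the same 3 libraries as Pi16, while Nr2f2, Vwf and Ackr1 were not. Kit followed Pi16 too, at 11.2, 27.3 and 7.42 CPM in the tdT+GFP+ sort and 28.03, 11.2 and 31.8 CPM in the tdT-GFP+ sort. Kit is used by mast cells. Of the other 7 mast cell genes looked up, Mcpt4, Tpsb2, Cma1 and Fcer1a were at 0 in all 6 libraries and Cpa3 had 1 count in all. Ms4a2, a chain of the IgE receptor, followed Pi16 with a gap of 10.6-fold, at 0.061, 0.644 and 0.038 CPM in the tdT+GFP+ sort and 1.68, 0.037 and 2.70 CPM in the tdT-GFP+ sort. That gap rests on few reads. Ms4a2 had 2, 20 and 1 counts in the tdT+GFP+ sort and 51, 1 and 73 in the tdT-GFP+ sort, its low libraries lying below a count of 3. Hdc, the enzyme of histamine synthesis, stayed between 3.77 and 5.53 CPM. The part of mast cells in the Pi16 pattern was not tested.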
